A study of Mus musculus with 7 samples.

Results

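Neutrophils read growth factors and cytokines through receptors in their plasma membrane, and 10 genes that encode such receptors were followed here: Csf3r, Csf2ra, Csf2rb, Csf2rb2, Csf1r, Il6ra, Il4ra, Ifngr1, Ifnar1 and Il17ra. They were taken by name, as genes with a row in all 7 tables of counts, and are 10 of the 9112 gene symbols found in both healthy sequencing runs. The counts are unique molecular identifiers (UMIs), each standing for 1 captured transcript molecule, in single cells sorted from mice and sequenced from the 3' end of the transcript on the 10X platform. Healthy neutrophils were the cells in which S100a8 and S100a9, the subunits of calprotectin and the most abundant neutrophil transcripts, made up at least 3% of the UMIs, and inflamed neutrophils were those whose deposited ImmGen class was a granulocyte class.

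The healthy samples came from male C57BL/6J mice, aged 6 weeks in run 1 and 8 weeks in run 2, and each was a pool of 3 mice from which Ly6G+ CD11b+ cells of blood, bone marrow or spleen were sorted. Each tissue thus had 2 pools (n = 2), 1 per run, and the 3 tissues of a run were taken from the same mice. A seventh library held 5 hashtagged conditions, each a pool of 3 mice (male and aged 8 weeks where treated) with no replicate: healthy blood, blood and joint lavage of mice with arthritis from K/BxN serum on days 0 and 2 and killed on day 7, lung lavage 3 h after 25 ng of intranasal IL-1β, and peritoneal lavage 3 h after 25 ng of intraperitoneal IL-1β. All mice were wild type, and no sample was perturbed in any of the 10 genes. The p-values below measure the spread between pools, not between single mice. Those of the granule classes have a further limit, given with that fit.

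The rule kept 12755 of 16907 healthy cells, from 1135 to 3672 per library, and 4852 of 4856 cells of the inflammation library, from 292 in the peritoneum to 2857 in the joint. All 11 neutrophil markers on the list were detected in every group. The list holds S100a8 and S100a9, whose detection in healthy cells was fixed by the rule, and Csf3r, a receptor studied here. Ly6g, Cxcr2 and Mmp8 are among the markers that the rule did not use. The kept cells of the healthy libraries held 1360064 to 9104133 UMIs. A blood neutrophil had a median of 809.5 and 826 UMIs in runs 1 and 2, a marrow neutrophil 2698.5 and 2133.5 and a spleen neutrophil 1355 and 775, whereas the medians in the inflammation library were 2527 to 3681. The methods give 10X chemistry version 3 for the inflammation library and version 2 for the healthy ones, whereas the labels name versions 1, 2 and 3 for all libraries alike, so that a difference in chemistry between runs 1 and 2 cannot be read from them. Levels and UMIs per cell are therefore compared within the healthy libraries or within the inflammation library. Levels are given as counts per 1000000 UMIs (CPM), which is the share of a cell population's captured RNA and not an amount per cell, and they are compared between samples of 1 gene, not between genes. Hemoglobin and other erythroid transcripts reached 30345 CPM in blood of run 2 and at most 912 CPM in the other healthy libraries, and B-cell markers 903 CPM in spleen of run 2; their part in the results was not tested.

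The receptors fall into families that signal in different ways. Csf3r binds G-CSF, the main growth factor of the neutrophil lineage, as a homodimer. GM-CSF is bound by the α chain Csf2ra, and its signal passes through the β chain Csf2rb, which is also used by the receptors of IL-3 and IL-5, whereas the mouse paralog Csf2rb2 is a β chain used for IL-3. Csf1r is a receptor tyrosine kinase for CSF1 and IL-34 and is best known from monocytes and macrophages. Il6ra is the ligand-binding chain for IL-6, Il4ra the shared chain for IL-4 and IL-13, Ifngr1 and Ifnar1 are chains of the type II and type I interferon receptors, and Il17ra is the shared chain for IL-17A and IL-17F. Csf1r has its own kinase domain, and Il17ra works through adaptors of the TRAF pathway. Il6ra binds IL-6 but signals through its partner gp130, encoded by Il6st, which had at most 4 UMIs in any healthy library or inflamed condition. The receptors of the other ligands signal through bound JAK kinases and STAT transcription factors, as gp130 does, and these signals are damped by SOCS proteins and CISH.

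The β chains lie side by side on chromosome 15 of the mouse genome (GRCm38, GENCODE M21), Csf2rb at chr15:78325752-78353847 on the plus strand and Csf2rb2 at chr15:78282507-78305721 on the minus strand. Their coding sequences, of 2688 and 2634 bases, shared 2503 aligned bases and differed at 125, an identity of 95.2%. The stretch below holds the last 90 aligned coding bases of each gene, 5' to 3', and is shown because reads from such near copies can be assigned to the wrong gene. Capitals mark the 6 bases that differ.

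Csf2rb: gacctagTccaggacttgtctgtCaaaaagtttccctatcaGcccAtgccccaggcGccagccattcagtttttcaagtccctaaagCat
Csf2rb2: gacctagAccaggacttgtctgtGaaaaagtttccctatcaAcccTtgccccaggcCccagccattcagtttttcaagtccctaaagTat

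Of the 4805 windows of 96 bases, the length of the cDNA read, along the longest Csf2rb transcript, 357 (7.43%) also stood letter for letter in the Csf2rb2 transcripts, and none of the 405 windows in the last 500 bases did. In the other direction 357 of 4645 windows (7.69%) were shared, again with none in the last 500 bases. The libraries were read from the 3' end, where the transcripts could be told apart by an exact match, but reads from the coding part could be split between both genes.

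The proximal upstream sequence of Csf2rb2, the receptor gene with the largest ratio in the inflammation library, is given next as the genome context of that result. The sequence spans chr15:78305722-78305971 (RefSeq start sites on GRCm38.p6), the 250 bases before the start site, and reads 5' to 3' on the minus strand. Capitals mark 2 words that a search of both strands found, GAGGAAG (a PU.1-like word, here as its reverse complement) and TTCNNNGAA (the GAS word that STAT factors bind).

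Csf2rb2 upstream: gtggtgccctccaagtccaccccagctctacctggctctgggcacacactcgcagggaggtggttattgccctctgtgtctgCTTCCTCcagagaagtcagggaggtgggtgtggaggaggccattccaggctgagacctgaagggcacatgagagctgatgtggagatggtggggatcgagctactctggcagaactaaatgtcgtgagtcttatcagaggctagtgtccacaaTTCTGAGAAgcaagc

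In windows of 250 bases before to 50 after the start site, the GAS word was in 2 of the 7 receptor genes with a RefSeq window (Csf2rb2 and Ifnar1), against 8.30% of 32851 windows of all genes, and the PU.1-like word in 3 (Csf3r, Csf2ra and Csf2rb2), against 13.6%. The C/EBP-like word TTNNGCAA was in none of the 7 and in 10.8% of all windows. The words do not overlap in the sequence shown, and a match of letters is a description of the window, not evidence of binding.

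The first comparison asked how receptor transcripts of circulating neutrophils differ from those of the marrow, where neutrophils are made. As a share of captured RNA, 9 of the 10 receptors were higher in blood than in bone marrow (edgeR quasi-likelihood test with run as a block, Benjamini-Hochberg adjusted p under 0.05), from 1.98-fold for Il17ra to 7.17-fold for Csf3r. Among all 7667 genes tested, 12% were higher in blood, or 15.8% of the 6588 tested genes with a row in every healthy table. The median log2 difference of the 10 receptors was 1.38, beside -0.03 for all genes tested. For all 10, both blood libraries lay above both marrow libraries, which held for 43.3% of the genes tested.

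Csf3r, at chr4:126024550-126044440 on the plus strand, was at 1421 and 1625 CPM in blood of runs 1 and 2, 145 and 216 CPM in marrow, and 414 and 1438 CPM in spleen. Both blood libraries and the spleen of run 2 stood far above the marrow, and the spleen of run 1 stood between. Its log2 difference between blood and marrow was 2.84 (SE 0.33, edgeR adjusted p = 0.00316). Csf1r had a similar profile, with 114 and 91.1 CPM in blood, 11.3 and 14.9 CPM in marrow, and 30.1 and 85.4 CPM in spleen. It differed between blood and marrow by 2.70 on the log2 scale (SE 0.35, edgeR adjusted p = 0.00445), a 6.49-fold difference, and it overlaps Hmgxb3 on the opposite strand.

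Of the GM-CSF receptor chains, the β chain passed the test and the α chain did not; the difference between them was not tested. Csf2ra, the α chain (chr19:61223957-61228429, minus strand), was at 204 and 172 CPM in blood, 91.1 and 127 CPM in marrow, and 109 and 141 CPM in spleen. Its blood libraries were above its marrow libraries, but the log2 difference of 0.50 did not pass the test (95% interval -0.08 to 1.08, edgeR adjusted p = 0.19). The β chain Csf2rb was at 98.5 and 169.8 CPM in blood, 39.8 and 61.6 CPM in marrow, and 52.5 and 149.8 CPM in spleen. It was higher in blood by 1.10 (SE 0.21, edgeR adjusted p = 0.0134), and the separate ranges of blood and marrow held here too. Csf2rb2 was scarce, at 12.5 and 14.4 CPM in blood, 4.9 and 5.3 CPM in marrow and 9.7 and 13.3 CPM in spleen, from 17 to 50 UMIs per library. Its log2 difference of 1.11 (SE 0.30) passed with edgeR (adjusted p = 0.0391) and not with DESeq2 (adjusted p = 0.39).

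Among the interleukin receptors, Il6ra (chr3:89864059-89913196, minus strand) was at 95.6 and 82.7 CPM in blood, 16.5 and 22.5 CPM in marrow, and 30.9 and 94.1 CPM in spleen. Il4ra (chr7:125552120-125579474, plus strand) was at 50 and 95.1 CPM in blood, 16.5 and 26.3 CPM in marrow, and 21.2 and 82.8 CPM in spleen. Both overlap a predicted gene on the opposite strand. In both, blood lay above marrow in each run, with log2 differences of 1.93 for Il6ra (SE 0.34, edgeR adjusted p = 0.0104) and 1.45 for Il4ra (SE 0.27, edgeR adjusted p = 0.0117). Il17ra (chr6:120463247-120487559, plus strand) was at 305 and 247 CPM in blood, 119 and 109 CPM in marrow, and 139 and 199.9 CPM in spleen. It had the smallest difference that passed, 0.98 (SE 0.21, edgeR adjusted p = 0.0184), with blood above both other tissues in both runs.

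The interferon receptor chains were both higher in blood. Ifngr1 (chr10:19591949-19610229, plus strand), which binds interferon γ, was at 146 and 208 CPM in blood, 53.9 and 61.0 CPM in marrow, and 76.7 and 174 CPM in spleen, a log2 difference between blood and marrow of 1.32 (SE 0.22, edgeR adjusted p = 0.00889). Ifnar1 (chr16:91485238-91507441, plus strand), a chain of the receptor for interferons α and β, was at 44.9 and 50.3 CPM in blood, 10.8 and 15.8 CPM in marrow, and 19.4 and 54.7 CPM in spleen, a difference of 1.56 (SE 0.28, edgeR adjusted p = 0.0111). In both genes the spleen of run 1 lay nearer to marrow and the spleen of run 2 nearer to blood.

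**Figure D1:**
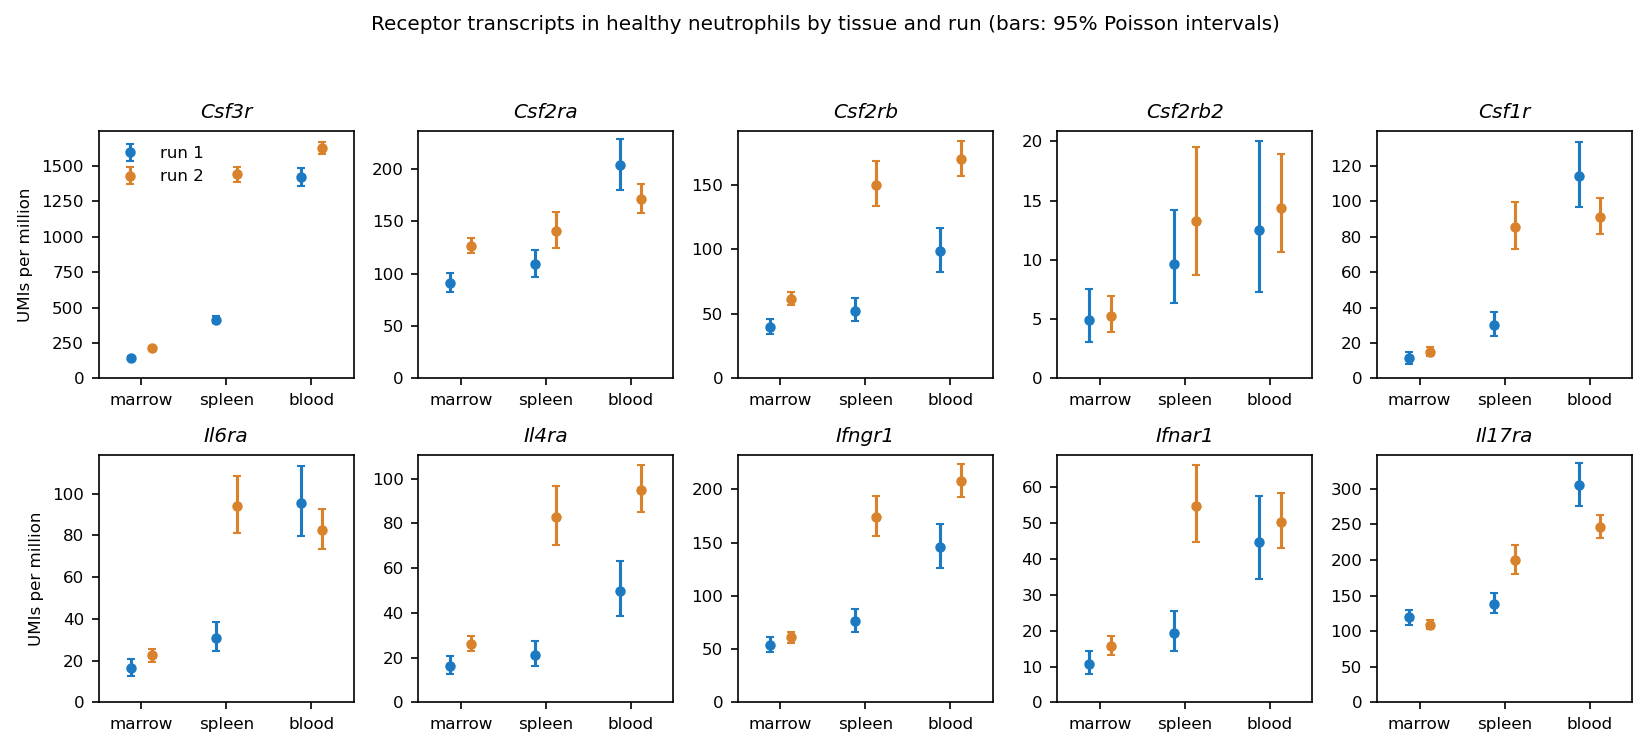
Level of each of the 10 receptors (CPM, y axes from 0) in neutrophils of bone marrow, spleen and blood; each point is 1 pool of 3 mice, colored by run, and bars are 95% Poisson intervals for counting error only. Both blood points lie above both marrow points in all 10 panels, and the spleen of run 1 lies below the spleen of run 2.

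Within each run the direction was the same. The ratio of blood to marrow was 9.83 in run 1 and 7.52 in run 2 for Csf3r, 10.1 and 6.10 for Csf1r, 5.80 and 3.67 for Il6ra, and 2.24 and 1.36 for Csf2ra. The calls depended on the block by run: without it, only 1 of the 10 passed. They also depended on single libraries, as the closing section gives. The log2 difference of Csf3r was 2.47 without the blood of run 1 and 3.14 without that of run 2.

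Because a marrow cell yielded more UMIs than a blood cell, the same counts were also expressed per cell. Csf3r then had 1.48 and 1.54 UMIs per cell in blood and 0.509 and 0.574 in marrow, a ratio of 2.91 in run 1 and 2.68 in run 2. Per cell, 4 of the 10 were above the marrow in both runs (Csf3r, Csf1r, Il6ra and Ifnar1), 4 were below it in both (Csf2ra, Csf2rb, Csf2rb2 and Il17ra), and Il4ra and Ifngr1 were on either side. Csf2ra had 0.212 and 0.163 UMIs per cell in blood against 0.321 and 0.337 in marrow, so its direction per cell was opposite to that in CPM. Whether a cell's UMI total reflects its RNA content or the capture in that library cannot be told apart.

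With every cell thinned to 500 UMIs, which left out 26 shallow cells of blood of run 1, 56.3% and 57.5% of blood neutrophils had a Csf3r UMI, compared with 11.1% and 13.3% in marrow and 28.7% and 55.6% in spleen. B cells in the spleen of run 2, which should lack the gene, gave a background of 2.58% of 1395 cells (median 1436 UMIs). Unthinned, the shares were 71.3% and 76.8% in blood, 35.8% and 41.0% in marrow, 49.8% and 73.3% in spleen and 8.75% in B cells. For Csf1r the thinned shares were 6.09% and 4.77% in blood, 0.912% and 1.37% in marrow, 3.26% and 4.83% in spleen, and 0.215% in B cells; unthinned, they were 10.6% and 8.01%, 3.57% and 3.91%, 6.43% and 7.76%, and 0.573%.

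Csf1r marks monocytes and macrophages, so the levels of their other markers stand beside it. The list without Ly6c2, which most marrow neutrophils carried, summed to 49.3 and 36.8 CPM in blood, 37.4 and 36.5 CPM in marrow, and 29.8 and 50.1 CPM in spleen. Of its 9 genes, 6 were detected in each blood library and all 9 in each marrow library. The macrophage genes C1qa and C1qb had no UMI in either blood library, C1qc had none in blood of run 1 and Fcgr1 none in blood of run 2. After all cells with a UMI of any other cell type's marker were left out, as planned, the log2 difference of Csf1r between blood and marrow was 1.89 (edgeR adjusted p = 0.000398). That rule counted Ly6c2 and left 145 of 1206 and 629 of 3426 marrow cells. With Ly6c2 excepted, a rule chosen after the data were seen, the difference was 2.78 (edgeR adjusted p = 0.00223).

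The planned rule also lowered the differences of the other receptors between blood and marrow. Csf3r (1.52), Il6ra (1.35), Ifngr1 (0.87) and Il17ra (0.51) still passed with edgeR, as Csf1r did. Csf2rb2 (0.55, edgeR adjusted p = 0.586), Csf2rb (0.48, adjusted p = 0.19), Il4ra (0.44, adjusted p = 0.366) and Ifnar1 (0.43, adjusted p = 0.43) no longer passed, so that 5 of the 10 were called.

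Spleen neutrophils were compared with marrow and blood in the same model. Csf3r was 4-fold higher in spleen than in marrow (log2 difference 2.00, SE 0.32, edgeR adjusted p = 0.0273) and Csf1r 3.59-fold (1.84, SE 0.35, adjusted p = 0.0432), and these 2 of the 10 were the ones that passed, against 2.23% of all genes tested, or 3.96% of those with a row in every healthy table. Il6ra, Ifnar1 and Ifngr1 had log2 differences of 1.37, 1.18 and 0.86 with edgeR adjusted p-values of 0.0937, 0.0835 and 0.103. Csf2rb2, Il4ra, Csf2rb and Il17ra had differences of 0.99, 0.90, 0.69 and 0.39 with adjusted p-values of 0.164, 0.149, 0.16 and 0.394. For Csf2ra the difference was 0.03, with a 95% interval from -0.55 to 0.61. In 7 of the 10, all but Csf2ra, Csf2rb and Il4ra, both spleen libraries lay above both marrow libraries, which held for 25.1% of all genes. Without the spleen of run 1, 7 of the 10 passed, without the marrow of run 1 4 passed, without the spleen of run 2 1 passed, and without the block, or without either blood library, none did.

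Between spleen and blood, none of the 10 passed with edgeR or with DESeq2, as 0.0522% of all genes did in either direction with edgeR. Csf1r, Csf3r and Il17ra were the 3 with an unadjusted edgeR p under 0.05. Csf3r differed by -0.84 (95% interval -1.57 to -0.12, edgeR adjusted p = 0.46), and Csf2rb2 by -0.13 (95% interval -0.85 to 0.60), so differences of that size remain possible. The differences of Csf1r, Il17ra, Il6ra, Il4ra, Csf2ra, Ifngr1, Csf2rb and Ifnar1 were -0.85, -0.60, -0.56, -0.55, -0.47, -0.46, -0.41 and -0.38, with edgeR adjusted p-values of 0.448 to 0.631. For Csf2ra, Csf1r and Il17ra, 3 of the 10, both spleen libraries lay below both blood libraries, as for 17.3% of all genes. The runs disagreed in size, with spleen over blood at 0.291 in run 1 and 0.885 in run 2 for Csf3r and 0.264 and 0.937 for Csf1r. They disagreed in direction for Il6ra (0.323 and 1.14) and Ifnar1 (0.431 and 1.09).

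Developing neutrophils make their granule proteins early and stop when they mature, so the cells of each library were divided by the share of UMIs from 5 granule genes (Camp, Ngp, Ltf, Lcn2 and Chil3). Cells under 2% were called granule-low, cells with 8% or more granule-high and the rest middle; these are ranges of a score and not cell types. The limits are not natural gaps, with 341 healthy cells within 20% of the lower limit and 551 within 20% of the upper. Granule-high cells made up 43.4% and 25.5% of marrow neutrophils in runs 1 and 2, 35.5% and 2.19% in spleen, and 7.66% and 0.517% in blood. The spleen of run 1, where Csf3r, Csf1r and Il6ra lay below their level in the spleen of run 2, was thus also the spleen with many granule-high cells; the part of that share in the spleen result was not tested.

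Classes with at least 50 cells entered a fit with library as a block. In it, 4 libraries held both ends of the range (blood and spleen of run 1 and both marrows). The run 1 libraries came from the same mice, and the classes are parts of a library. The p-values of this fit thus measure how class differences varied over libraries, which are not all independent pools. Of the 10 receptors, 9 were higher in granule-low than in granule-high cells, against 23.9% of the 6041 genes tested. The median log2 difference was 1.35 for the receptors and -0.03 for all genes. Csf1r and Csf3r differed most, by 3.28 (SE 0.33, edgeR adjusted p = 1.25e-07) and 3.08 (SE 0.24, edgeR adjusted p = 3.86e-09).

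In granule-high cells Csf3r was at 149 CPM in blood of run 1, 76.3 and 85.6 CPM in the marrows and 77.3 CPM in spleen of run 1. In granule-low cells of the same libraries it was at 1887, 407, 475 and 1459 CPM. The classes did not overlap, and the blood and spleen values of the granule-low class exceeded those of both marrows. Il4ra was at 4.5, 8.7, 13.9 and 10.1 CPM in granule-high cells and 65.2, 45.6, 49.0 and 61.5 CPM in granule-low cells of these 4 libraries, a log2 difference of 2.26 (SE 0.24, edgeR adjusted p = 2.88e-07). Again the ranges were apart, with every granule-low value above every granule-high value.

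Il6ra differed by 1.76 (SE 0.27, edgeR adjusted p = 2.7e-05), and Il17ra by 1.30 (SE 0.17, edgeR adjusted p = 3.81e-06). For Ifnar1 the difference was 1.37 (edgeR adjusted p = 0.000169), for Csf2rb 1.33 (5.82e-05), for Ifngr1 1.33 (0.000268) and for Csf2rb2 1.00 (0.0335). The call of Csf2rb2 was lost with DESeq2, with an S100 share of 1%, with cells carrying other markers except Ly6c2 left out, and without either marrow library or the spleen of run 1 (adjusted p = 0.0576 to 0.156). Csf2ra stood apart: it was at 162, 106, 128 and 121 CPM in granule-high cells and 228, 110, 143 and 145 CPM in granule-low cells, a difference of 0.09 with a 95% interval from -0.28 to 0.45 (edgeR adjusted p = 0.72). Per cell, 3 of the 10 (Csf3r, Csf1r and Il4ra) had more UMIs in the granule-low class in all 4 libraries, and Csf2ra had fewer in all 4.

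**Figure D2:**
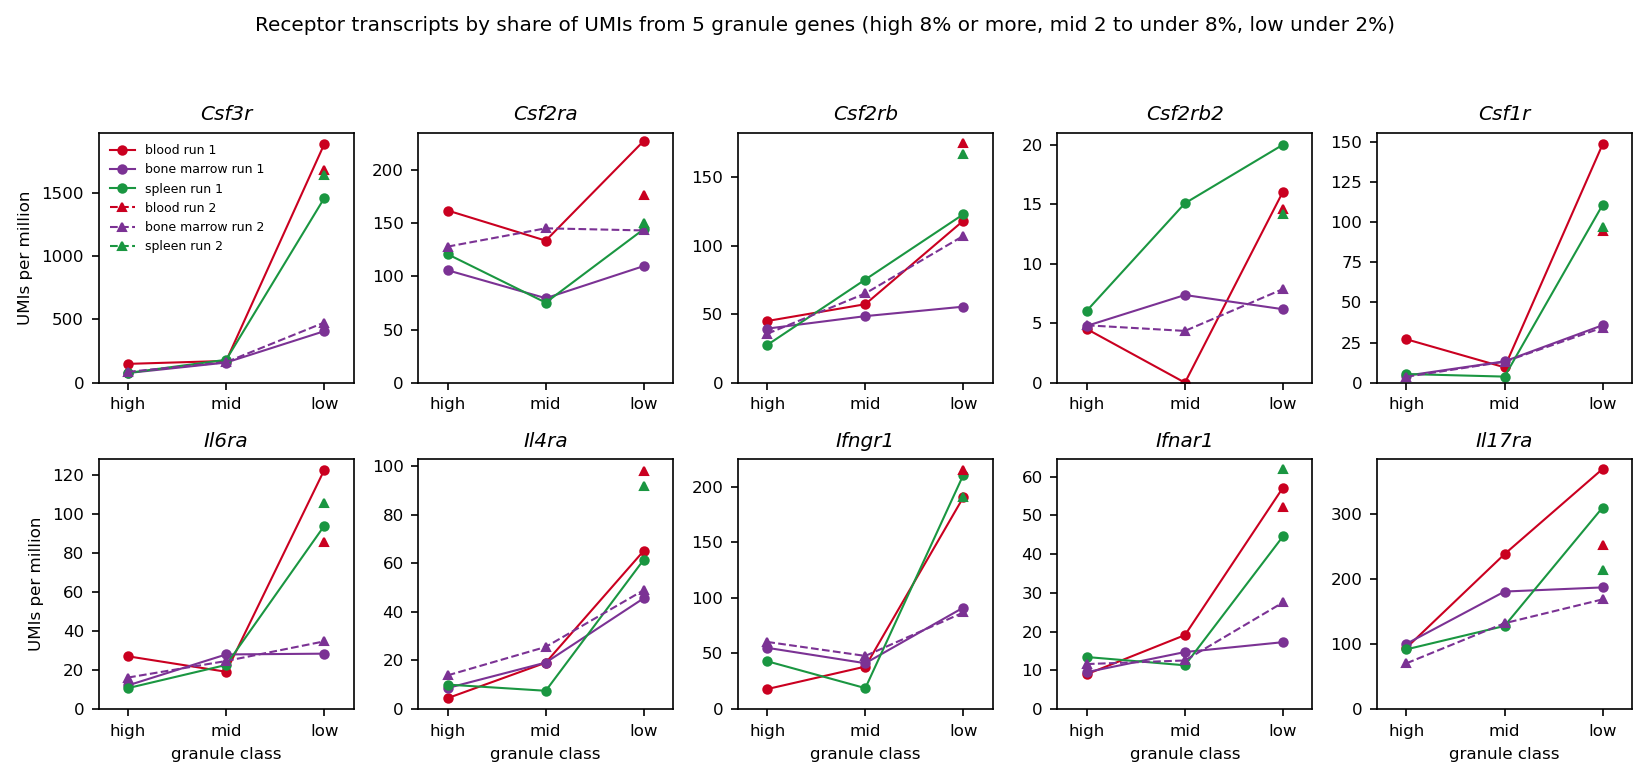
Level of each receptor (CPM, y axes from 0) in cells of the granule-high, middle and granule-low classes; each line is 1 healthy library, and classes with under 50 cells are not drawn. The lines of Csf3r, Csf1r and Il4ra climb toward the granule-low class in every library with both ends, while those of Csf2ra stay between 75.4 and 228 CPM.

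Blood and marrow were then compared within the granule-low class alone, so that cells of a like granule content were set side by side. Of the 10 receptors, 4 were higher in blood, against 7.42% of the 6008 genes tested; with library sizes alone 8 were called, and without the block by run none. The 4 were Csf3r (log2 difference 1.66, SE 0.20, edgeR adjusted p = 0.000722), Csf1r (1.34, SE 0.21, adjusted p = 0.00254), Il6ra (1.26, SE 0.23, adjusted p = 0.00563) and Ifngr1 (0.84, SE 0.19, adjusted p = 0.0145). The Ifngr1 call was also lost with DESeq2 (adjusted p = 0.0896), with other limits of the granule classes (0.67, edgeR adjusted p = 0.0651) and without the blood of run 2 (0.63, edgeR adjusted p = 0.262). Csf3r was at 1887 and 1680.5 CPM in granule-low blood cells of runs 1 and 2 and at 407 and 475 CPM in those of marrow, so that the tissues remained apart within the class. Ifnar1 had a difference of 0.83 that did not pass (edgeR adjusted p = 0.0533), and for Csf2rb, Il4ra, Il17ra, Csf2rb2 and Csf2ra the differences of 0.27 to 0.66 had adjusted p-values of 0.15 to 0.432. The median over the 10 was 0.75, beside 0.03 for all genes. Marrow cells of the class could still differ from blood cells in maturity below the 2% limit, which was not tested.

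Receptor chains outside the 10 and the signalling genes behind them moved in the same direction. Of 26 partner chains, 12 were expressed enough to test, and 7 of these were higher in blood than in marrow and none lower, where 12% of all genes tested were higher. Il13ra1, which joins Il4ra in the receptor for IL-13, was at 100 and 241 CPM in blood and 8.0 and 20.2 CPM in marrow (log2 difference 3.34, SE 0.30, edgeR adjusted p = 0.00212). Tgfbr2, the ligand-binding TGF-β receptor, followed with 2.02 (SE 0.30, edgeR adjusted p = 0.00655), and Tgfbr1, Il10ra, Il10rb and the decoy receptor Il1r2 were also higher, by 0.99 to 1.87.

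Of 30 signalling genes, 27 were tested, and 10 were higher in blood and none lower, beside the same 12% of all genes. Socs3, an inhibitor of JAK signalling that G-CSF and IL-6 induce, was at 160.3 and 229.5 CPM in blood, 5.9 and 21.5 CPM in marrow, and 44.7 and 247 CPM in spleen, a difference between blood and marrow of 3.77 (SE 0.41, edgeR adjusted p = 0.00287). The adaptor Gab2, the kinase Pim1, Stat5b, Jak2 and Stat6 were higher by 1.24 to 2.12. In granule-low against granule-high cells, 7 of 10 partner chains and 13 of 22 signalling genes tested were higher and none was lower, beside 23.9% of all genes, with Il13ra1 (4.58, edgeR adjusted p = 2.61e-09) and Socs3 (4.51, edgeR adjusted p = 6.8e-09) at the head of their lists.

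Within the granule-low class, blood exceeded marrow in 5 of 8 partner chains and 3 of 24 signalling genes tested, beside 7.42% of all genes, so that the signalling share was near the background. Socs3 was one of them, with a log2 difference of 2.19 (SE 0.27, edgeR adjusted p = 0.000722). In spleen against marrow 1 partner chain (Il13ra1) and 2 signalling genes (Socs3 and Pim1) were higher, 1 of 12 and 2 of 27 tested beside 2.23% of all genes, and in spleen against blood none of either list passed with edgeR, with 2 of each at an unadjusted p under 0.05.

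The inflammation library was used to ask how the receptors stood in neutrophils of inflamed sites. With 1 pool per condition there is no test between conditions, so values are given with 95% Poisson intervals, which cover counting error only, and a gene is called past the fold rule where the ratio is at least 2, or at most 0.5, and the intervals of the levels do not overlap. Both β chains exceeded healthy blood past this rule in all 3 inflamed fluids, and Il4ra in the lung and peritoneum 3 h after IL-1β. Csf3r, Csf1r, Il6ra and Il17ra were lower past the rule in 1 or more of the fluids, and these calls depended on the scaling.

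Csf2rb was at 270.3 CPM in healthy blood, 338 CPM in arthritic blood, 728 CPM in the joint, 903 CPM in the lung and 948 CPM in the peritoneum. Over healthy blood, this was 2.69-fold in the joint (2.40 to 3.03), 3.34-fold in the lung (2.94 to 3.80) and 3.51-fold in the peritoneum (3.08 to 4.01). The 3 fluids thus stood together above both bloods, with arthritic blood at 1.25-fold (1.10 to 1.43). Csf2rb2 had only 12 UMIs (10.7 CPM) in healthy blood, with 27.5 CPM in arthritic blood, 64.8 CPM in the joint, 77.2 CPM in the lung and 67.9 CPM in the peritoneum. Its ratios were 2.58 (1.39 to 5.21), 6.07 (3.45 to 11.8), 7.24 (3.97 to 14.5) and 6.36 (3.40 to 13), with wide intervals from the low count. The α chain Csf2ra did not follow its β chain: it was at 353 CPM in healthy blood, 270.3 CPM in arthritic blood, 402 CPM in the joint, 420.1 CPM in the lung and 334 CPM in the peritoneum with ratios to healthy blood from 0.766 to 1.19.

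Il4ra stood higher in the IL-1β fluids than in the joint. It was at 88.9 CPM in healthy blood, 76.9 CPM in arthritic blood and 106 CPM in the joint, but at 472 CPM in the lung and 331 CPM in the peritoneum. The ratios to healthy blood were 0.865 (0.678 to 1.11) in arthritic blood, 1.19 (0.971 to 1.48) in the joint, 5.31 (4.30 to 6.63) in the lung and 3.72 (2.96 to 4.71) in the peritoneum. Site, agent and time differed between the joint and the IL-1β fluids, and cannot be told apart.

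Csf3r was at 4056 CPM in healthy blood, 3130.4 CPM in arthritic blood, 2129 CPM in the joint, 1179 CPM in the lung and 1926 CPM in the peritoneum. The ratios to healthy blood were 0.772 (0.744 to 0.800), 0.525 (0.508 to 0.542), 0.291 (0.274 to 0.308) and 0.475 (0.450 to 0.502), so every inflamed condition lay below. Csf1r, at 166 CPM in healthy blood, was at 112, 80.4, 68.9 and 109 CPM in arthritic blood, joint, lung and peritoneum. Il6ra, at 301 CPM in healthy blood, was at 201, 151, 142 and 111 CPM in the same order. Il17ra, at 412 CPM in healthy blood, was at 311, 304, 291 and 158 CPM, with the peritoneum apart from the rest at 0.383-fold (0.316 to 0.462).

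In CPM, the interferon receptor chains stayed inside the 2-fold limits. Ifngr1 was at 175 CPM in healthy blood, 149.6 CPM in arthritic blood, 228 CPM in the joint, 179 CPM in the lung and 154 CPM in the peritoneum. Ifnar1 was at 104 CPM in healthy blood, 72.0 CPM in arthritic blood, 120.5 CPM in the joint, 104 CPM in the lung and 167 CPM in the peritoneum, where its ratio of 1.60 (1.25 to 2.05) was its largest.

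**Figure D3:**
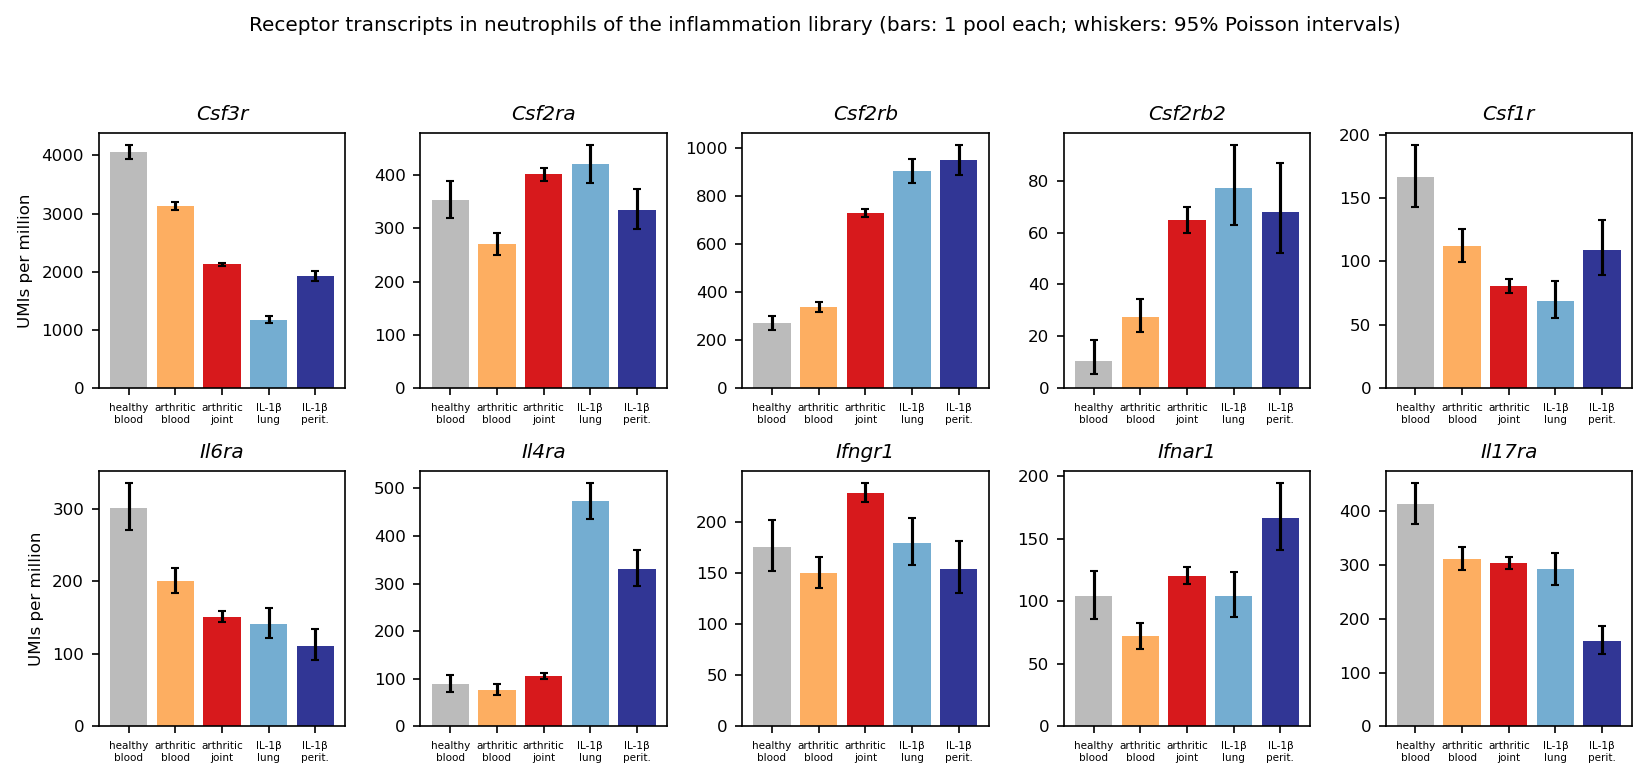
Level of each receptor (CPM, y axes from 0) in neutrophils of the 5 conditions of the inflammation library; each bar is 1 pool without a replicate, and whiskers are 95% Poisson intervals. Csf2rb and Csf2rb2 are highest in the 3 inflamed fluids, Il4ra in the lung and peritoneum, and Csf3r in healthy blood.

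Counted by the fold rule, arthritic blood had 1 receptor higher (Csf2rb2, against 0.521% of the genes measured) and 0 lower (6.58%). That call was lost with cells thinned to 1000 UMIs and without cells carrying markers of other types. The joint had 2 higher (7.5%) and 1 lower, Csf1r (20.3%), and the lower call was lost in the same alternatives. The lung had 3 higher (10%) and 3 lower, Csf3r, Csf1r and Il6ra (43.3%), and the peritoneum 3 higher (9.55%) and 3 lower, Csf3r, Il6ra and Il17ra (43.7%). The 3 lower receptors in the lung and peritoneum are thus a share below that of all genes in these conditions. With thinning, the lower calls of Csf1r and Il6ra in the lung and of Csf3r in the peritoneum were lost. Without cells carrying markers of other types, those of Il6ra in the lung and Csf3r in the peritoneum were lost too.

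These shares reflect the scale. In CPM the median log2 ratio of all genes to healthy blood was -0.40 in arthritic blood, -0.47 in the joint, -0.97 in the lung and -1.06 in the peritoneum, and with TMM factors, which center the bulk of genes, it was 0.06, 0.08, -0.07 and -0.15. With TMM no receptor was lower past the rule, and Csf3r had ratios of 1.06, 0.77, 0.54 and 0.89. Of all genes, 83 of 6522 were lower past it in arthritic blood, 514 of 8148 in the joint, 915 of 5804 in the lung and 755 of 5521 in the peritoneum. In the same order 143, 1121, 1144 and 1034 genes were higher. The higher calls of Csf2rb, Csf2rb2 and Il4ra in the fluids were also made with TMM, where Csf2rb was at 3.96, 6.24 and 6.60 times healthy blood in joint, lung and peritoneum and Il4ra at 9.92 and 7.00 times in lung and peritoneum. Csf2ra in the lung (2.22) and Ifnar1 in the peritoneum (3.01) also passed with TMM, and Ifnar1 there with cells thinned to 1000 UMIs. Per cell, Csf3r had 8.96 UMIs in healthy blood, 10.4 in arthritic blood, 7.67 in the joint, 4.10 in the lung and 6.22 in the peritoneum, whereas Csf2rb had 0.597, 1.12, 2.62, 3.14 and 3.06.

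**Figure D4:**
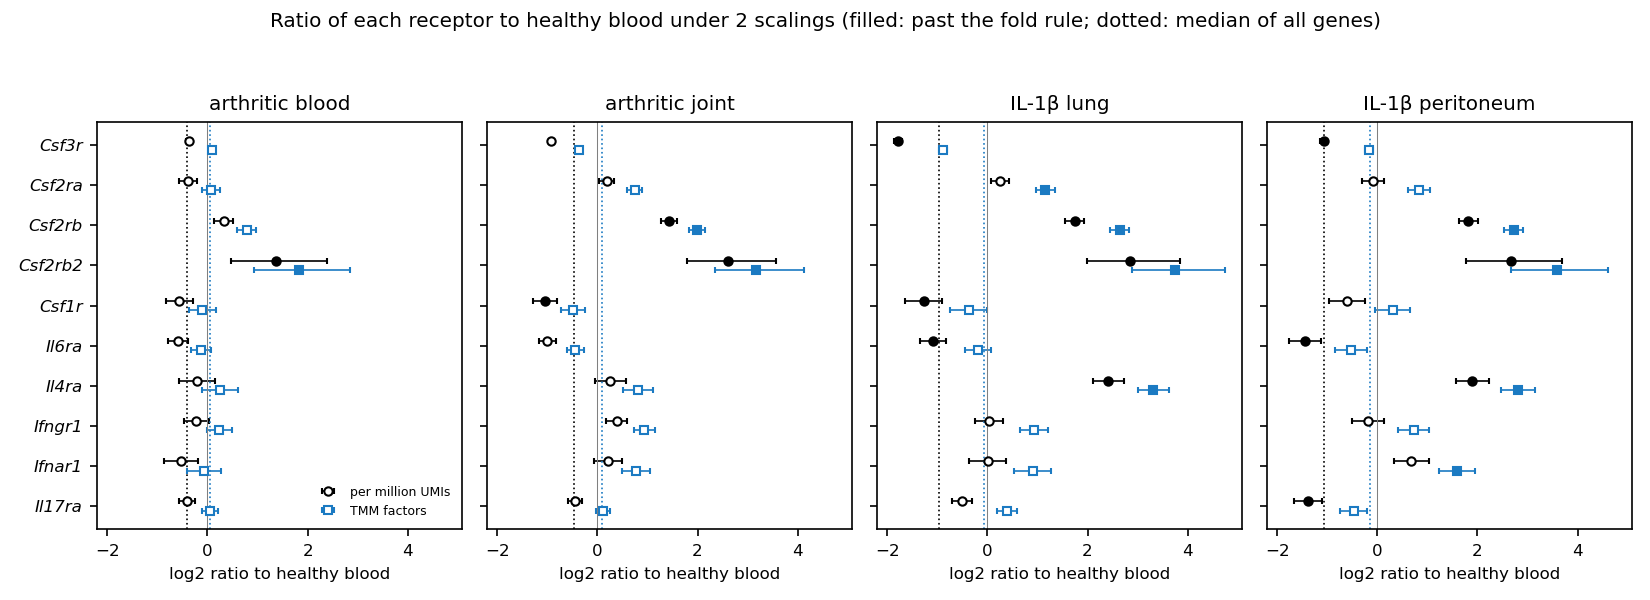
Log2 ratio of each receptor to healthy blood (x axes) in the 4 inflamed conditions, in CPM (black circles) and with TMM factors (blue squares); filled symbols are past the fold rule, whiskers are 95% counting intervals and dotted lines the median of all genes. Csf2rb and Csf2rb2 lie to the right in joint, lung and peritoneum and Il4ra in lung and peritoneum under both scalings, while the filled symbols on the left are black circles only.

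Joint and blood of the arthritic mice were compared directly. Csf2rb was 2.15-fold (2.01 to 2.31) and Csf2rb2 2.36-fold (1.85 to 3.04) higher in the joint, 2 of the 10 receptors against 11.5% of the genes measured, and 0 were lower, against 7.37%. The joint-to-blood ratios of Ifnar1, Ifngr1, Csf2ra and Il4ra were 1.67, 1.52, 1.49 and 1.38, and those of Il17ra, Il6ra, Csf1r and Csf3r 0.977, 0.753, 0.717 and 0.680. Between the lung and the peritoneum 0 receptors were higher (6.14%) and 0 lower (5.9%) past the rule. The values farthest from 1 included Il17ra, at 1.84 times the peritoneal level in the lung (1.52 to 2.24), Csf3r at 0.612 times (0.572 to 0.655) and Ifnar1 at 0.627 times (0.495 to 0.793). For Csf1r, Csf2rb, Csf2rb2, Ifngr1, Csf2ra, Il6ra and Il4ra the ratios of lung to peritoneum were 0.630, 0.952, 1.14, 1.17, 1.26, 1.27 and 1.43. Markers of monocytes and macrophages without Ly6c2 were at 167 CPM in the peritoneum and 32.5 to 56.1 CPM in the other 4 conditions; their part in the peritoneal values was not tested.

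Partner chains and signalling genes in the inflamed fluids included the largest ratios of the families. In the joint, 3 of 11 partner chains with enough UMIs were higher and 0 lower past the rule, led by Il1r2, a decoy that binds IL-1, at 268 CPM in healthy blood and 1983 CPM in the joint (7.41-fold, 6.61 to 8.33), and 1 of 28 signalling genes, Pim1, was higher and 4 (Stat5a, Stat5b, Cbl and Sh2b3) lower, where 7.5% of all genes were higher and 20.3% lower. In the lung, 3 of 10 partner chains were higher and 0 lower, and 7 of 28 signalling genes were higher and 7 lower, beside 10% and 43.3% of all genes. In the peritoneum, 4 of 9 partner chains were higher and 2 lower, and 8 of 28 signalling genes were higher and 6 lower, beside 9.55% and 43.7%. The lower calls depended on the scale: with TMM factors none of the 4 in the joint was past the rule (ratios of 0.501 to 0.601). Of all listed genes only Sh2b3 and Stat5b in the lung and Sh2b3 in the peritoneum remained lower past it. The higher calls of both lists with TMM numbered 7 in the joint, 17 in the lung and 22 in the peritoneum. Beside them, TMM gave 1121 of 8148 genes higher and 514 lower in the joint, 1144 of 5804 and 915 in the lung, and 1034 of 5521 and 755 in the peritoneum. In arthritic blood no gene of either list was past the rule.

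Cish, a target of STAT5 that damps cytokine receptor signalling, was at 7.11 CPM in healthy blood (8 UMIs), 2.97 CPM in arthritic blood, 4.27 CPM in the joint, 409 CPM in the lung (57.5-fold, 29.0 to 134) and 287 CPM in the peritoneum (40.4-fold, 20.2 to 94.6). It was thus detected at a high level in the IL-1β fluids and not in the joint. Socs3 was at 175 CPM in healthy blood, 153 CPM in the joint, 1496 CPM in the lung (8.54-fold, 7.37 to 9.94) and 1929.6 CPM in the peritoneum (11.0-fold, 9.51 to 12.8). Traf6, an adaptor of IL-1 and IL-17 receptor signalling, was at 13.3 CPM in healthy blood (15 UMIs), 149 CPM in the lung (11.2-fold, 6.62 to 20.4) and 81.7 CPM in the peritoneum (6.13-fold, 3.49 to 11.5). Pim1, a kinase that STAT5 induces, was at 279 CPM in healthy blood, 751 CPM in the joint (2.69-fold, 2.40 to 3.02), 1201 CPM in the lung (4.30-fold, 3.81 to 4.87) and 2739 CPM in the peritoneum (9.81-fold, 8.72 to 11.1), and was thus higher past the rule in all 3 fluids. Jak2, the kinase used by Csf3r and the β chains, was at 69.3 CPM in healthy blood and at 376 CPM in the lung (5.43-fold, 4.27 to 6.98) and 329.9 CPM in the peritoneum (4.76-fold, 3.70 to 6.18). Jak3, the kinase bound to the common γ chain, rested on 4 UMIs in healthy blood, with ratios of 5.11 (1.76 to 20.3) in the lung and 7.16 (2.46 to 28.4) in the peritoneum, and the inhibitor Socs1 had ratios of 4.85 (2.67 to 9.53) and 4.04 (2.14 to 8.17). Both IL-1β fluids thus held more of the kinases Pim1, Jak2 and Jak3 and of the inhibitors Cish, Socs3 and Socs1, in CPM.

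Among the partner chains, Il10ra, the ligand-binding chain of the IL-10 receptor, was at 51.6 CPM in healthy blood, 291 CPM in the lung (5.65-fold, 4.28 to 7.58) and 293 CPM in the peritoneum (5.68-fold, 4.26 to 7.67). Il1r2 had ratios of 14.4 (12.8 to 16.2) in the lung and 4.31 (3.79 to 4.91) in the peritoneum. Il10rb, the other chain of the IL-10 receptor, had ratios of 2.06 (1.77 to 2.40) in the joint and 2.57 (2.15 to 3.09) in the peritoneum. Its lung ratio of 1.97 (1.65 to 2.37) was just under the 2-fold limit. Il2rg, the common γ chain that pairs with Il4ra, rested on 3 UMIs in healthy blood, with 17.4 CPM in the joint, 92.3 CPM in the lung and 103 CPM in the peritoneum. Its ratios were 6.52 (2.20 to 31.9), 34.6 (11.6 to 170.2) and 38.6 (12.8 to 190.3).

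For 4 receptors the genes with the most similar profile were sought over the 11 groups (6 healthy libraries and 5 conditions), among 2112 genes at 100 CPM or more in at least 1 group, by Pearson's r of log2(CPM + 10) centered within each run and the inflammation library. For Csf3r they were Klf3 (r = 0.996), Selplg (0.995) and Trim12a (0.989). For Csf2rb they were Slc2a1 (0.985), Snx20 (0.984) and Fcer1g (0.984), and for Il4ra Il18rap (0.979), Dhx38 (0.978) and Jak2 (0.977). For Ifngr1 they were Metrnl (0.974), Grina (0.973) and Gabarap (0.971). The 11 points share libraries and depth within each run, so these coefficients are descriptions of the profiles.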

How the data were processed

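The deposited values are raw UMI counts per gene and cell. Per the labels and methods, the authors obtained them with Cell Ranger on mm10, using version 1.2.0 in run 1, version 2.1.0 in run 2 and version 3.0.2 in the inflammation library. Run 1 tables have rows only for genes detected in that table; a missing gene was set to 0 (1079 of the 7667 genes tested between tissues, none of the 10 receptors). UMI counts were summed per library and fitted with edgeR 4.0.16 in R 4.3.3 (TMM, filterByExpr, quasi-likelihood test, adjusted p under 0.05); DESeq2 1.42.0 was an alternative. Run is a block because all tissues in a run share their mice. Deviations of same-run samples correlated at 0.514, 0.465 and 0.570 over 7667 genes. The 5 granule genes were left out of the class fits. Conditions of the inflammation library followed the deposited table of cells, and genes with at least 20 UMIs in both groups together were compared. Ratios have exact conditional 95% intervals.

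All 10 receptors are named in every comparison. Of the other lists only part of the genes is named, mostly by smallest adjusted p or largest ratio. The receptors, lists and tests were chosen with earlier results of these data known. Alternatives were other scalings, filters, cell rules, class limits, thinning and leaving out each library. Doublets were not called. Any pair of libraries shared at most 36 cell barcodes. The fits were tested on simulated data. Poisson, binomial and ratio intervals cover counting error only. Intervals of the fits come from the spread between pools, and in the fit of granule classes from the spread of class differences over libraries.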

Additional observations from a re-analysis of the deposited data

Results flagged for a closer look

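Csf2ra lay on opposite sides of healthy blood in conditions of the inflammation library: its ratio of CPM was 1.14 in the joint and 1.19 in the lung and 0.766 in arthritic blood, each with a counting interval that leaves out 1. Ifnar1 did the same, at 1.60 in the peritoneum and 0.693 in arthritic blood. With 1 pool per condition the difference between conditions was not tested, and with TMM factors the arthritic blood ratios of Csf2ra and Ifnar1 were 1.05 and 0.95.

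In bone marrow, cells outside the S100 rule, which enter no comparison above, held more of 3 receptors, in CPM, than the neutrophils inside it, in both runs and with separate counting intervals. Csf1r was at 91.3 CPM in run 1 and 45.9 CPM in run 2 outside the rule, Ifngr1 at 265 and 207 CPM, and Ifnar1 at 30.4 and 56.9 CPM.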

How the results depend on the processing

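The number of receptors higher in blood than in marrow (9) was 1 with no replicate block, 5 without cells carrying markers of other types and 0 to 9 with a library left out. For spleen against marrow (2) it was 1 with library sizes alone, 3 with DESeq2, 5 with no filter on low counts, 0 with no replicate block, 4 with only genes that have a row in every healthy table (an alternative added after the data were seen), 1 with an S100 share of 1%, 4 without cells carrying other markers and 0 to 7 with a library left out. For spleen against blood (0) it was 0 to 2 with a library left out, 2 being lower without the spleen of run 2. Within granule-low cells (4) it was 8 with library sizes alone, 0 with no replicate block, 7 with an S100 share of 1% and 3 to 5 with a library left out. Between granule classes (9) it was 8 or 9 in every alternative run; the rule on other markers left no granule-high class to fit. Of 40 ratios to healthy blood, 16 were past the fold rule, and 11 to 17 in the alternatives. The rule on other markers removed most marrow cells because of Ly6c2; excepting that gene, added after the data were seen, gave 8, 2, 0, 8 and 4 calls for the 5 fits in the order of the report. No called receptor changed sign: of 860 refitted values, 760 kept direction and call, 29 gained and 61 lost the call, and 10 uncalled ones changed sign. The latter were Csf2ra in spleen against marrow (-0.078 without cells carrying other markers, -0.31 to 0.41 with a library left out), between granule classes (-0.040 with an S100 share of 1%, -0.075 to 0.20 with a library left out) and within granule-low cells (-0.053 to 0.64 with a library left out), and, in spleen against blood without cells carrying other markers, Csf2rb (0.077), Csf2rb2 (0.095), Il6ra (0.076) and Ifngr1 (0.017).

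All genes called in blood against marrow numbered 1693, 201 with no replicate block, 779 without cells carrying other markers and 0 to 2518 with a library left out (58 and 0 without blood of run 1 and 2). In spleen against marrow 211 were called, 440 with no filter, 320 with rows in every table, 0 with no replicate block and 0 to 990 with a library left out. In spleen against blood 4 were called, 28 with DESeq2, 34 with no filter, 19 with an S100 share of 10% and 0 to 434 with a library left out. Within granule-low cells 843 were called, 387 with DESeq2, 1272 with an S100 share of 10% and 35 with no replicate block. Library sizes alone moved the median log2 difference of all genes to 0.25 in blood against marrow and to 0.39 within granule-low cells. The causes were not tested. Where 1 pool of a tissue remained, it was assumed to vary like the other tissues.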

Other observations

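The ligands of these receptors were mostly undetected in the neutrophils. Csf1, a ligand of Csf1r, was an exception. It was at 44.9 and 49.4 CPM in healthy blood of runs 1 and 2, 17.5 and 42.4 CPM in spleen and 2.86 CPM in marrow of run 2, while the table of run 1 marrow has no row for it. In the inflammation library it was at 204 CPM in healthy blood, 132 CPM in arthritic blood, 281 CPM in the lung and 329 CPM in the peritoneum, but at 1381 CPM in the joint, from 14219 UMIs. The joint thus held the highest Csf1 level of the 5 conditions, with 1 pool per condition and no test. Csf3, which encodes G-CSF, had 0 UMIs in the healthy libraries and both bloods of the inflammation library, 1 in the joint, 12 in the lung (9.08 CPM) and 24 in the peritoneum (25.5 CPM).

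Of the other listed ligands, Csf2, Il34, Il13, Ifng, Ifnb1, Il17a, Il17f, Il3 and Il5 had 0 UMIs in the kept cells of every library. A count of 0 is taken here as at most 3 UMIs per library total, and it says nothing about other cells of the tissues. No values are given for Il4 and Il6, which are also on the list.

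After the study's stated quality filters, the table of cells held 367 cells labelled lung and 287 labelled peritoneum, which is the opposite order of size to that in the study's text. Scgb1a1, a secretory protein of airway epithelium, had 88 UMIs in the cells labelled lung and 0 in those labelled peritoneum, and Bpifa1, another airway secretory gene, 13 and 0; both genes were chosen after their values were seen. The labels were kept as deposited in all comparisons.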
